A study of Mus musculus with 15 samples.

Results

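Microglia, the brain's own macrophages, were sorted from mice bred to delete the transcription factor gene Yy1 in these cells and from controls, and bulk RNA was sequenced 6 days after an ischemic stroke. The comparison took 6 of the 15 libraries of the series, chosen by their labels. In it, 3 libraries labelled Yy1cKO (genotype Cx3cr1-CreER;Yy1flox/flox) were set against 3 control libraries labelled Yy1flox (genotype Yy1flox/flox). Both groups carried the floxed Yy1 alleles, and both were male mice between 8 and 24 weeks old whose middle cerebral artery had been occluded for 60 minutes. Microglia with intermediate CD45 and CD11b staining were sorted from the forebrain. The Cx3cr1 promoter, which drives the inducible recombinase CreER, is active in microglia and also in other myeloid cells. The controls had no CreER, so that the presence of the recombinase and the loss of Yy1 cannot be told apart, and neither the timing of tamoxifen nor its use in the controls was given in the sources used here. The labels number the libraries of each group as biological replicates 1 to 3, without saying whether each came from 1 mouse, and the p-values measure the spread between these libraries.

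YY1 is a zinc finger protein that binds promoters and enhancers and can activate or repress genes. It bridges enhancers to promoters by pairing with itself, and it works with the INO80 chromatin remodeler and with Polycomb proteins. Resting microglia carry a set of surface receptors and transcription factors that falls after injury, while genes of phagocytosis and lipid handling rise.

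Total counts ran from 10528300 to 12845300 in Yy1cKO and from 11035300 to 13936100 in Yy1flox. The Yy1cKO libraries were sparser: 12184 to 13009 genes had a count, against 13835 to 14532 genes in Yy1flox, and 389 to 832 of the tested genes were at 0, against 52 to 135. Among the 8610 genes with a mean of at least 10 CPM (the count scaled to library size), 1, 13 and 14 were at 0 in Yy1cKO replicates 1 to 3, against 0 in each Yy1flox library. Correlations of log2 CPM over genes were 0.802 to 0.835 within Yy1cKO, 0.907 to 0.921 within Yy1flox and 0.821 to 0.885 between the groups. The part of this difference in library complexity in the results below was not tested.

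Yy1 itself (GRCm38 chromosome 12, 108792973 to 108820148) stood at 32.5, 28.9 and 38.8 CPM in Yy1cKO, against 76.1, 50.9 and 57.9 CPM in Yy1flox. Every Yy1cKO library was below every Yy1flox library. The mean was 33.4 ± 4.99 CPM in Yy1cKO and 61.6 ± 13 CPM in Yy1flox (SD, n = 3 each), a log2 difference of -0.88 ± 0.28 (SE) that did not pass the threshold (edgeR's quasi-likelihood test, Benjamini-Hochberg adjusted p = 0.128). Counts were summed over the whole gene, and the exons removed are not given in the sources used here, so these values do not show how much functional Yy1 was left.

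Yy1cKO microglia had higher levels of genes of resting microglia and lower levels of osteopontin, lipid scavenger receptors and several genes that respond to glucocorticoids. Of 24421 listed genes, 12387 had enough counts to be tested, and 192 were called higher and 130 lower at an adjusted p under 0.05, which is 1.55% and 1.05% of the genes tested. The lower genes moved further. In Yy1cKO 37 genes fell and 6 rose by at least 4-fold, while 90 fell and 71 rose by at least 2-fold. The median log2 difference was -1.30 among the lower calls, 0.84 among the higher calls and -0.02 over all tested genes. In all 322 calls the groups did not overlap, an order that over all tested genes was met by 9.54% with Yy1cKO on top and by 11.5% with Yy1cKO below.

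Yy1flox replicate 1 carried many of the calls: without it, 58 genes were called higher and 39 lower, and of the original calls 57 and 38 were among them. Leaving out Yy1flox replicate 2 left 98 higher and 67 lower, and leaving out Yy1flox replicate 3 left 78 lower. Scaling by total counts in place of trimmed means (TMM) shifted the median of all genes to -0.12 and turned the split to 127 higher and 193 lower. Calls that passed in every one of the 18 alternatives that tested the gene are said below to hold throughout, which 57 of the higher and 33 of the lower calls did. Many calls given below as lost without Yy1flox replicate 1 were lost in other alternatives as well. Tlr7, Pcna, Chil3 and Lgals3 were each lost in 5 of the 18, and C1qc, B2m, Ctsd and Trem2 were also lost with total-count scaling. Others, such as Gpr165 and Timp3, were lost only without that library.

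**Figure D1:**
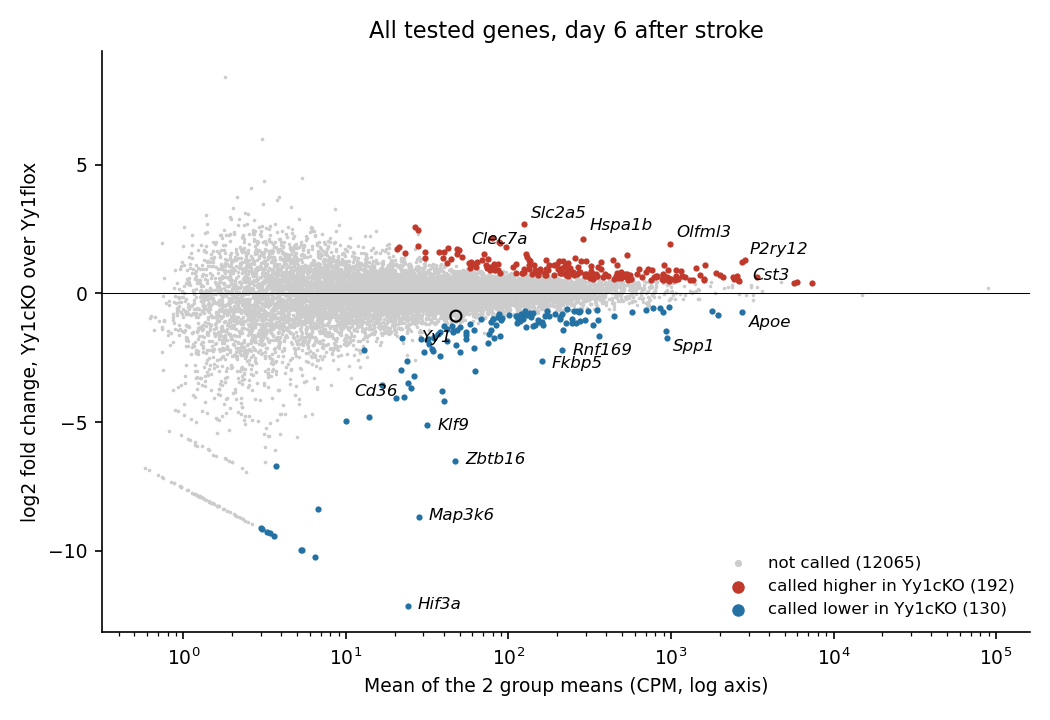
Each point is 1 of the 12387 tested genes, with its mean level over both groups in CPM on a log axis and its log2 fold change in Yy1cKO over Yy1flox. Red points are the 192 genes called higher in Yy1cKO, blue points the 130 called lower, grey points the rest, and the open circle marks Yy1. Higher calls lie among abundant genes and lower calls reach further from 0. The lowest fitted values belong to genes with few or 0 counts in Yy1cKO, where they depend on the prior count and are not measures of size.

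Of the gene lists examined, that of resting microglia held the most higher calls. Of 35 listed genes, all of them tested, 20 rose, 0 fell and 15 did not pass, with a median log2 difference of 0.74 against -0.02 over all genes. In 26 of the 35 every Yy1cKO library lay above every Yy1flox library, as in 9.54% of all tested genes. Summed over the list, levels ran from 44051 to 47407 CPM in Yy1cKO and from 27845 to 29716 CPM in Yy1flox. Of the 20 calls 13 held throughout, among them all those described here except Cx3cr1 and Gpr165, and the other 7 were lost without Yy1flox replicate 1 (edgeR adjusted p = 0.0686 to 0.136). Calls made up 57.1% of the list, against 1.55% of all tested genes called higher. This and the other lists by function or cell type were chosen with earlier results of these data known. Their shares of calls are therefore descriptions and not tests.

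Slc2a5, a fructose transporter gene largely restricted to microglia in the brain (chromosome 4, 150119283 to 150144169), had the highest fold change of any named gene. It stood at 182, 241 and 229 CPM in Yy1cKO, against 36.1, 35.4 and 28.8 CPM in Yy1flox, a log2 difference of 2.70 ± 0.20 (edgeR adjusted p = 2.53e-06). The groups were far apart, with the lowest Yy1cKO library well above the highest Yy1flox library. Olfml3, a secreted glycoprotein gene, stood at 1588, 1493 and 1602 CPM in Yy1cKO, against 325, 376 and 534 CPM in Yy1flox (log2 difference 1.92 ± 0.16). Cst3, which encodes the protease inhibitor cystatin C, stood at 3835, 4552 and 3822 CPM in Yy1cKO, against 1503, 1631 and 1862 CPM in Yy1flox (log2 difference 1.29 ± 0.11). Neither gene had overlapping groups. The orphan receptor gene Gpr165 stood at 24.2, 62.8 and 50.5 CPM in Yy1cKO, against 6.12, 6.21 and 10.9 CPM in Yy1flox (log2 difference 2.56 ± 0.45), and was lost without Yy1flox replicate 1 (adjusted p = 0.0686).

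The surface receptors of resting microglia rose as well. P2ry12, the receptor with which microglia sense ADP, stood at 3527, 4135 and 3879.7 CPM in Yy1cKO, against 1503, 1674 and 1799.7 CPM in Yy1flox (log2 difference 1.21 ± 0.10, edgeR adjusted p = 6.25e-06). The lysophosphatidylserine receptor gene Gpr34 stood at 1258, 1222 and 1227 CPM in Yy1cKO, against 500.4, 641 and 576 CPM in Yy1flox (log2 difference 1.11 ± 0.12). These receptors showed little spread within Yy1cKO. Fcrls, an Fc receptor-like gene, had a log2 difference of 1.49 ± 0.18, the adhesion ligand gene Selplg 1.12 ± 0.14, the lectin gene Siglech 0.96 ± 0.13 and the membrane protein gene Tmem119 0.95 ± 0.13. Cx3cr1, the fractalkine receptor gene whose promoter drives CreER, rose less, with a log2 difference of 0.50 ± 0.12 (edgeR adjusted p = 0.0386), and this call was lost in 7 alternatives, with an adjusted p of 0.136 without Yy1flox replicate 1.

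**Figure D2:**
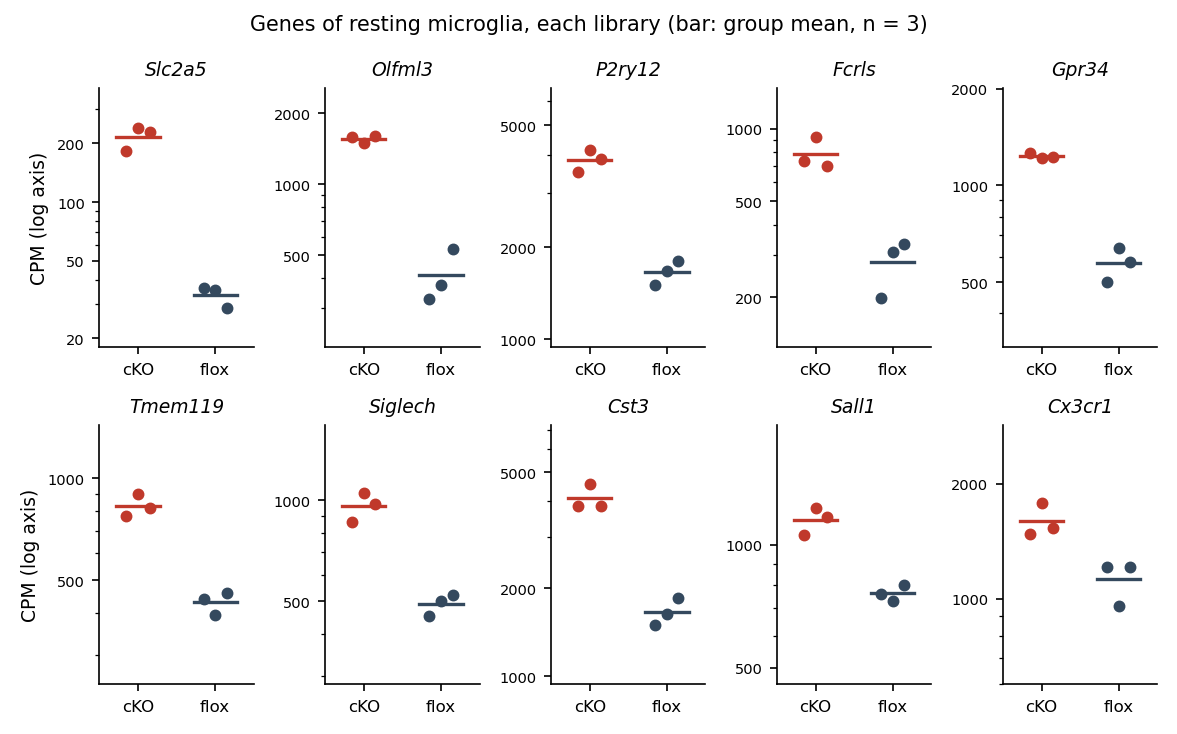
Levels of 10 genes of resting microglia in each library, in CPM on log axes, with Yy1cKO (red) left of Yy1flox (dark) and bars at the group means (n = 3 each). In every panel the 3 Yy1cKO points lie above the 3 Yy1flox points, widest for Slc2a5 and narrowest for Cx3cr1.

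Transcription factors of microglial identity moved in both directions. Of 24 listed genes 4 rose and 2 fell, a share of 25% against 2.6% of all tested genes in either direction, with a median log2 difference of 0.09. Sall1, which maintains microglial identity in mice, stood at 1056, 1231 and 1169 CPM in Yy1cKO, against 759, 729.8 and 796 CPM in Yy1flox. Its relative Sall3 (log2 difference 0.79 ± 0.17) and the myeloid factors Irf8 (0.66 ± 0.13) and Spi1, which encodes PU.1 (0.81 ± 0.19), rose as well. The Krueppel-like factor genes Klf6 (-0.70 ± 0.12) and Klf4 (-0.69 ± 0.17) fell. The 6 calls were lost without Yy1flox replicate 1, where the adjusted p ran from 0.0628 to 0.166 for the higher genes and from 0.0533 to 0.276 for the lower genes. Klf6 was lost only there, while of the 18 alternatives Sall1 and Sall3 were each lost in 2, Irf8 in 3, Klf4 in 5 and Spi1 in 6.

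Genes of disease-associated microglia, which mark phagocytic microglia in neurodegeneration and injury, split evenly. Of 32 listed genes 5 rose, 5 fell and 22 did not pass, with a median log2 difference of 0.15. Both directions together, 31.2% were called, against 2.6% of all tested genes. Spp1, the gene of osteopontin, a phosphoprotein secreted by phagocytic cells, stood at 367, 497 and 441 CPM in Yy1cKO, against 1069, 1785 and 1472 CPM in Yy1flox (log2 difference -1.73 ± 0.17, edgeR adjusted p = 2.12e-05). The groups were well apart. Gpnmb, a glycoprotein gene of lipid-laden macrophages, stood at 111, 100.2 and 139 CPM in Yy1cKO, against 294, 319 and 330.0 CPM in Yy1flox (log2 difference -1.43 ± 0.17). Apoe, the lipid carrier gene, stood at 2373, 1876 and 2008 CPM in Yy1cKO, against 3378, 3299 and 3571 CPM in Yy1flox (log2 difference -0.71 ± 0.11). Lilrb4a, an inhibitory receptor gene, fell by 1.24 ± 0.14 on the log2 scale. These 4 calls held throughout.

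The 5 higher calls of the same list included a receptor gene. Clec7a, which encodes the beta-glucan receptor dectin-1, stood at 196, 209.5 and 163 CPM in Yy1cKO, against 54.7, 92.8 and 66.8 CPM in Yy1flox (log2 difference 1.41 ± 0.21, edgeR adjusted p = 0.00124). It held throughout, whereas the calls of Cd9, Ctsd, B2m and Trem2, with log2 differences between 0.42 and 0.68, were lost without Yy1flox replicate 1 (adjusted p = 0.113 to 0.16). The galectin gene Lgals3, the fifth lower member, stood at 10.2, 7.32 and 21.3 CPM in Yy1cKO, against 37.5, 46.1 and 50.8 CPM in Yy1flox, and was lost without Yy1flox replicate 1 as well (adjusted p = 0.146).

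A few genes of lipid uptake and storage fell. Of 24 tested genes of lipid uptake, storage and efflux 4 fell and 0 rose, with a median log2 difference of -0.19. This is 16.7% called, against 2.6% of all tested genes in either direction. Cd36, a scavenger receptor gene for oxidized lipids and fatty acids, stood at 4.53, 3.14 and 3.16 CPM in Yy1cKO, against 37.3, 58.9 and 43.5 CPM in Yy1flox, 12.9-fold higher in Yy1flox (log2 difference -3.69 ± 0.43, edgeR adjusted p = 0.000154). Msr1, the scavenger receptor class A gene, stood at 15.4, 22.6 and 13.7 CPM in Yy1cKO, against 68.4, 104 and 76.8 CPM in Yy1flox (log2 difference -2.27 ± 0.31). Both receptors and Apoe held throughout. Plin2, which coats lipid droplets, fell by 0.92 ± 0.20 on the log2 scale and was lost without Yy1flox replicate 1 (adjusted p = 0.0628). The lipoprotein lipase gene Lpl had overlapping groups, with 146, 139 and 196 CPM in Yy1cKO against 183, 269 and 221 CPM in Yy1flox (adjusted p = 0.235). Of the 21 tested genes of cholesterol synthesis 0 were called by edgeR, DESeq2 or limma-voom and 1 had an unadjusted p under 0.05, and their median log2 difference was -0.33.

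**Figure D3:**
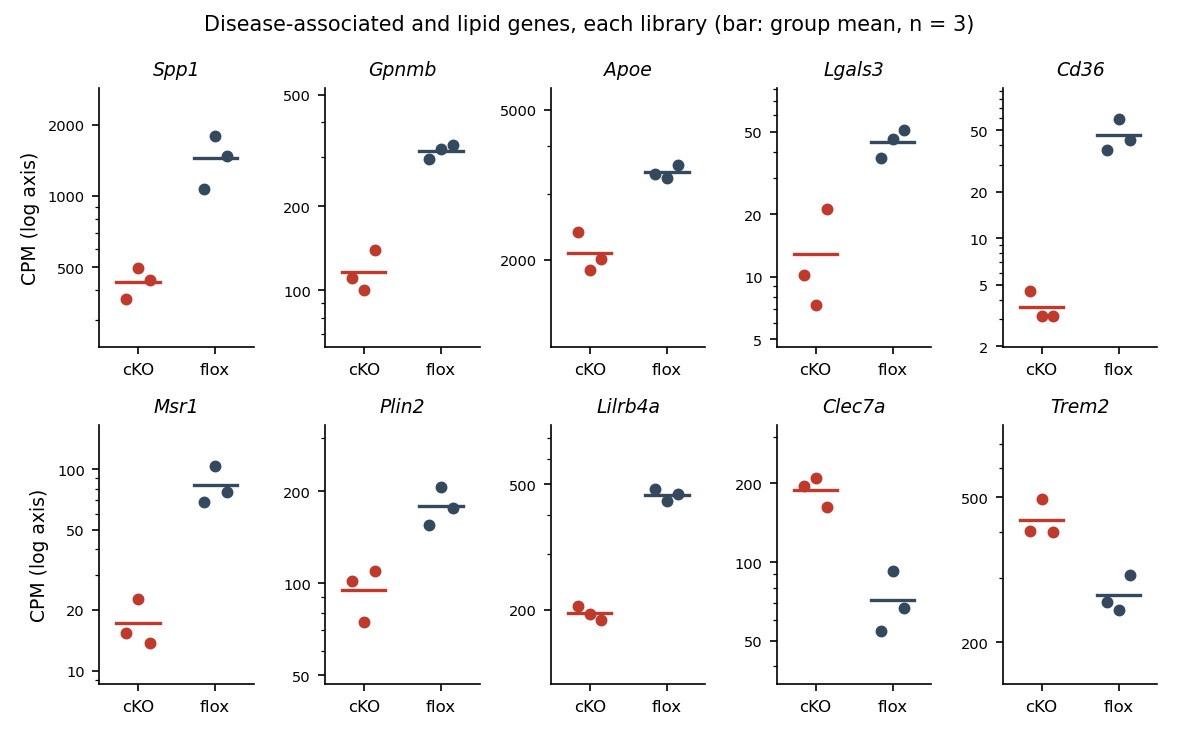
Levels of 10 genes of disease-associated microglia and lipid handling in each library, in CPM on log axes, with Yy1cKO (red) left of Yy1flox (dark) and bars at the group means (n = 3 each). The first 8 genes are lower in all 3 Yy1cKO libraries, while Clec7a and Trem2 are higher.

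Several glucocorticoid-responsive genes were far lower in Yy1cKO. Glucocorticoids are adrenal stress hormones whose nuclear receptor induces a set of genes in many cell types. Of 15 listed genes 5 fell, 1 rose and 9 did not pass, with a median log2 difference of -0.70. Calls made up 40% of the list, against 2.6% of all tested genes. The list was chosen with earlier results of these data known, so this share is a description and not a test. Fkbp5, which encodes a chaperone that restrains the glucocorticoid receptor (chromosome 17, 28399094 to 28517527), stood at 46.4, 42.7 and 47.1 CPM in Yy1cKO, against 337, 285 and 209 CPM in Yy1flox (log2 difference -2.61 ± 0.20, edgeR adjusted p = 2.53e-06). The Yy1cKO libraries were nearly equal and all far under Yy1flox.

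Zbtb16, a zinc finger gene strongly induced by glucocorticoids (chromosome 9, 48654297 to 48836222), stood at 2.85, 0 and 0.296 CPM in Yy1cKO, against 148, 72.7 and 59.6 CPM in Yy1flox. The Krueppel-like factor gene Klf9 stood at 1.48, 3.70 and 0 CPM in Yy1cKO, against 76.4, 57.0 and 51.3 CPM in Yy1flox. Pik3ip1, an inhibitor of PI3 kinase, stood at 3.84, 8.21 and 3.35 CPM in Yy1cKO, against 108, 60.2 and 49.4 CPM in Yy1flox. In all of these genes Yy1flox replicate 1 was the highest library, and without it Fkbp5, Zbtb16, Klf9 and Pik3ip1 were still called. The call of Zbtb16 was lost only with limma-voom (adjusted p = 0.0510). Ddit4, an inhibitor of mTOR signaling, averaged 10.3 ± 7.37 CPM in Yy1cKO and 50.5 ± 21.1 CPM in Yy1flox (SD, n = 3 each), and its call was lost without Yy1flox replicate 1 (adjusted p = 0.361).

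Of the 15 genes 8 were lower in every Yy1cKO library (11.5% of all tested genes were) and 2 were higher in every one (9.54% of all were), and 1 was called higher. Sgk1, a kinase gene also induced by glucocorticoids, stood at 2027, 1628 and 1958 CPM in Yy1cKO, against 1112, 1099 and 1188 CPM in Yy1flox (log2 difference 0.72 ± 0.11, edgeR adjusted p = 0.00162), a rise that held throughout. Tsc22d3, which encodes the leucine zipper protein GILZ, had non-overlapping groups but did not pass, with 170.1, 106 and 131 CPM in Yy1cKO against 284, 176 and 202 CPM in Yy1flox (adjusted p = 0.102), though it was called lower in 4 of the 18 alternatives, with no filter on low counts, DESeq2, limma-voom and the replicate block (adjusted p = 0.0061 to 0.0383). The clock gene Per1 had overlapping groups, with a log2 difference of 0.18 ± 0.17 (adjusted p = 0.753). Tsc22d3 and Per1 were named after their values were seen.

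**Figure D4:**
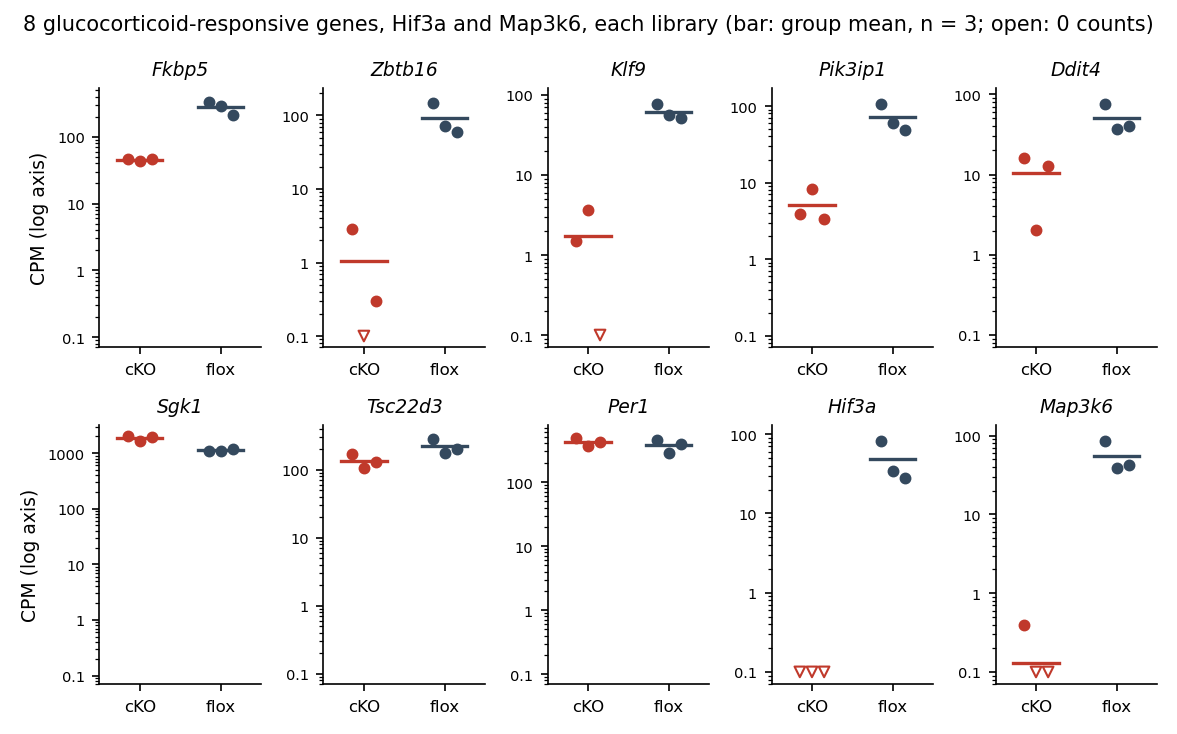
Levels of 8 glucocorticoid-responsive genes and of Hif3a and Map3k6 in each library, in CPM on log axes, with Yy1cKO (red) left of Yy1flox (dark), bars at the group means (n = 3 each) and open triangles for libraries at 0 counts. Fkbp5, Zbtb16, Klf9 and Pik3ip1 are far lower in Yy1cKO, Sgk1 is higher, and Hif3a is at 0 in all 3 Yy1cKO libraries.

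The lowest fold changes outside these lists included genes that were near 0 in Yy1cKO. Hif3a, which encodes a hypoxia-inducible factor subunit (chromosome 7, 17031507 to 17062427), had 0 counts in all 3 Yy1cKO libraries, against 82.2, 34.2 and 28.3 CPM in Yy1flox. Set against a floor of 3 counts over the group, it was at least 514-fold lower in Yy1cKO. Map3k6, a stress-activated kinase gene, had 4 counts over the Yy1cKO group and 2092 over Yy1flox, a ratio of Yy1flox over Yy1cKO of 452 (95% counting interval 176 to 1661). The floor and the interval pool the libraries of a group and cover counting error only, not the spread between libraries. Slc15a2, a peptide transporter gene, stood at 5.71, 3.94 and 2.96 CPM in Yy1cKO, against 109, 71.3 and 49.9 CPM in Yy1flox. Inf2, an actin-regulating formin gene, stood at 17.3, 12.9 and 10.8 CPM in Yy1cKO, against 137, 93.6 and 100.5 CPM in Yy1flox. All 4 calls held throughout. Of the 130 lower calls 9 had 0 counts in every Yy1cKO library, among them the smooth muscle genes Myh11 and Mylk, at means of 12.8 and 10.6 CPM in Yy1flox.

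Rnf169, a ubiquitin ligase gene of the DNA damage response (chromosome 7, 99920254 to 99980448), had the smallest p-value among the lower genes. It stood at 83.4, 67.8 and 77.7 CPM in Yy1cKO, against 391, 347 and 322 CPM in Yy1flox (log2 difference -2.21 ± 0.17, edgeR adjusted p = 2.53e-06). In the separately scaled table of wild-type mice, with 1 library per time, it stood at 84.4 CPM after sham surgery, 89.4 CPM on day 1, 82.9 CPM on day 6, 39.8 CPM on day 14 and 71.5 CPM on day 28. Lifr, the receptor gene for leukemia inhibitory factor, stood at 173, 151 and 200.5 CPM in Yy1cKO, against 657, 518 and 459 CPM in Yy1flox (log2 difference -1.64 ± 0.17). Tgfbi, a matrix protein gene induced by TGF-beta, fell by 1.75 ± 0.24 on the log2 scale, and Trp53inp1, a p53 target gene, by 1.23 ± 0.17.

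Other genes with high fold changes included several outside the lists. Ssbp3, which encodes a single-stranded DNA-binding protein, stood at 42.3, 43.6 and 54.8 CPM in Yy1cKO, against 8.55, 6.29 and 10.4 CPM in Yy1flox (log2 difference 2.48 ± 0.38, edgeR adjusted p = 0.00143). Padi2, which encodes an enzyme that converts arginine to citrulline, stood at 119.7, 144 and 156 CPM in Yy1cKO, against 17.2, 45.3 and 41.7 CPM in Yy1flox (log2 difference 2.01 ± 0.30). Arhgap4, a GTPase-activating protein gene, stood at 219, 271 and 232 CPM in Yy1cKO, against 97.1, 97.1 and 101 CPM in Yy1flox (log2 difference 1.29 ± 0.17). These calls held throughout, and none of the groups overlapped. Timp3, an inhibitor of matrix metalloproteinases, was the 1 call among 17 genes of extracellular proteolysis (5.88%, against 2.6% of all tested genes). It stood at 1.67, 9.10 and 0.986 CPM in Yy1cKO against 46.6, 40.4 and 45.9 CPM in Yy1flox, and was lost without Yy1flox replicate 1 (adjusted p = 0.0869).

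The promoters of Rnf169 and Sgk1 are shown because they hold the core of the YY1 motif and belong to genes that were called in opposite directions. Each is 300 bases of RefSeq sequence (GRCm38.p6), from 250 bases before a transcription start to 50 after it, written 5′ to 3′ on the gene's strand with the motif ATGGCGG, or CCGCCAT on the other strand, in capitals. The Rnf169 promoter is chr7:99980409-99980708 on the minus strand, with the motif at position 25 after the start. The Sgk1 promoter is chr10:21994416-21994715 on the plus strand, 1 of several starts of that gene, with the motif at position -91. Shorter stretches are given for Ino80, the catalytic subunit of the remodeler that works with YY1 (within chr2:119477638-119477937, minus strand), and Atp5b, a subunit of the mitochondrial ATP synthase (within chr10:128083057-128083356, plus strand).
Rnf169: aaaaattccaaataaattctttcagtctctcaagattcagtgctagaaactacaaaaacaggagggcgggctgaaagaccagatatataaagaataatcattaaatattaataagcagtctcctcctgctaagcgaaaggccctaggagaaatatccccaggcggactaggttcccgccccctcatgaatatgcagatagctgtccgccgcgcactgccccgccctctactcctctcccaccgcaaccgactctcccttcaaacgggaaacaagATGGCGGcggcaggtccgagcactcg
Sgk1: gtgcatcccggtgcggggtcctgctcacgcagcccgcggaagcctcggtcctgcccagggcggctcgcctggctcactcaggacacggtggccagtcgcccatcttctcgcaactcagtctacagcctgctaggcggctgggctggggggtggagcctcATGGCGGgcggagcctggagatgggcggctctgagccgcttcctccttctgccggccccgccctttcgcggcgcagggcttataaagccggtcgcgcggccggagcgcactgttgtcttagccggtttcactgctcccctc
Ino80: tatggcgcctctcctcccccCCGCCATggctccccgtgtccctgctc
Atp5b: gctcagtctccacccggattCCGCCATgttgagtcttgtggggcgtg
Neither Ino80 (edgeR adjusted p = 0.628) nor Atp5b (adjusted p = 0.451) was called, and both had overlapping groups.

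Over all tested genes, 9365 had a promoter in the RefSeq table, and 906 of them (9.67%) held the motif on either strand. Among genes with a promoter it was held by 4 of 140 called higher (2.86%) and by 3 of 101 called lower (2.97%). Besides Rnf169 the lower genes were Aim2, an inflammasome sensor of DNA, and Ccnl2, a cyclin of RNA processing. Besides Sgk1 the higher genes were Clptm1, Nfkbid and Dip2b. These 5 were named after their values were seen. None of the 25 resting microglia genes with a promoter held the motif. Promoters of mitochondrial ribosomal proteins held it in 13 of 68 genes (19.1%) and those of oxidative phosphorylation in 10 of 62 (16.1%). The GC content of the promoters had a median of 59% for higher calls, 62% for lower calls, 55.33% for resting microglia genes and 60.67% for all tested genes. The motif itself contains the letters CG. The median number of CG pairs per promoter was 8 for resting microglia genes, 15 for higher calls, and 20 for lower calls and for all tested genes. The part of this difference in the motif counts was not tested. A match in this window is a description of the letters and shows no binding.

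Gene groups tied to YY1 in other cells had 0 calls at the threshold. This was so for 75 tested genes of oxidative phosphorylation, 77 mitochondrial ribosomal protein genes, 77 cytosolic ribosomal protein genes, 14 INO80 complex genes, 32 Polycomb genes and 16 YY1 relatives and looping factors. Of these 291 genes edgeR gave 15 higher and 7 lower at an unadjusted p under 0.05, which 14.1% of all tested genes had, DESeq2 called 1 higher and limma-voom 0. Their median log2 differences lay between -0.11 for the mitochondrial ribosome and 0.14 for the cytosolic ribosome. At an adjusted p under 0.05 in 3 against 3 libraries, such counts do not show that these genes were equal between the groups. Zfp384, a zinc finger factor gene, had overlapping groups, with 82.7, 77.9 and 99.4 CPM in Yy1cKO against 93.8, 102 and 96.5 CPM in Yy1flox.

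**Figure D5:**
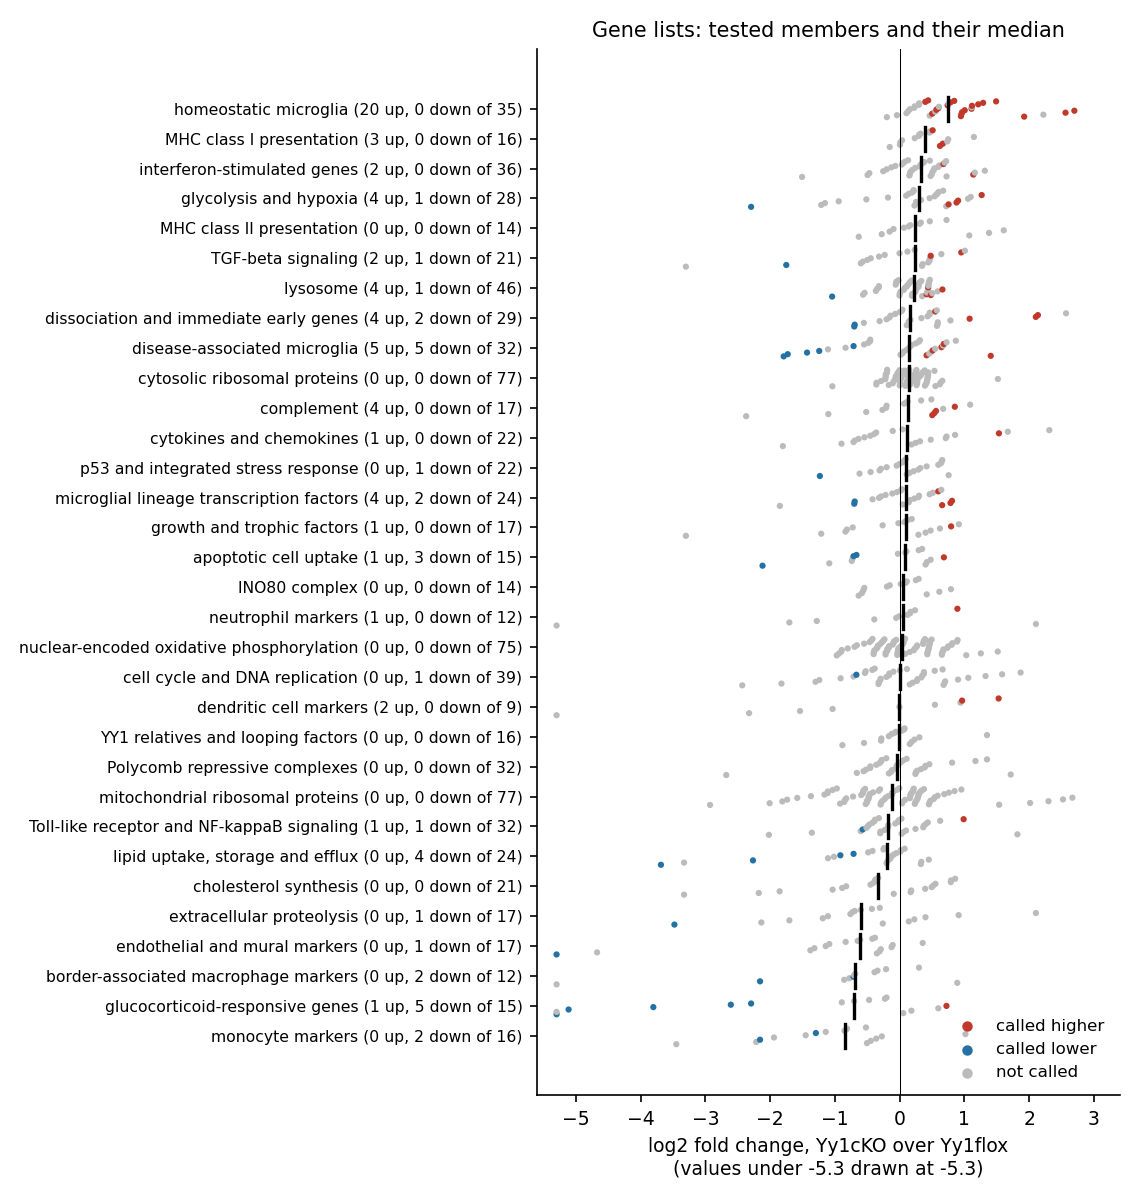
Log2 fold changes in Yy1cKO over Yy1flox of the tested members of each gene list with at least 9 tested members, with a black bar at the list median. Red points were called higher, blue points lower and grey points neither. Lists run from the highest median at the top (resting microglia, 0.74) to the lowest at the bottom (monocyte markers, -0.84).

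Immune sensing genes moved in small numbers, at shares set here against 2.6% of all tested genes. Calls made up 6.25% of Toll-like receptor and NF-kappaB genes, 4.55% of cytokine and chemokine genes and 5.56% of interferon-stimulated genes. Of 32 tested genes of Toll-like receptor and NF-kappaB signaling, the receptor gene Tlr3 rose, with 308, 259.6 and 282 CPM in Yy1cKO against 134, 153 and 141 CPM in Yy1flox, and Tlr7 fell by 0.57 ± 0.13 on the log2 scale. Of 22 cytokine and chemokine genes only the chemokine gene Ccl9 was called, with 116, 108 and 93.5 CPM in Yy1cKO against 37.0, 43.5 and 28.9 CPM in Yy1flox. Tlr3 and Ccl9 held throughout, and Tlr7 was lost without Yy1flox replicate 1 (adjusted p = 0.239). Il1b, the interleukin-1 beta gene, was scattered, with 49.1, 5.96 and 84.0 CPM in Yy1cKO against 3.61, 15.4 and 8.94 CPM in Yy1flox (adjusted p = 0.0981), and was called higher in 3 of the 18 alternatives, with no filter on low counts, DESeq2 and without Yy1cKO replicate 2. Among 36 interferon-stimulated genes 2 rose, Bst2 and Trim30a, with a list median of 0.33. Both were lost without Yy1flox replicate 1 (adjusted p = 0.111 and 0.262). Of 14 MHC class II genes edgeR called 0, with 2 higher at an unadjusted p under 0.05, and DESeq2 and limma-voom each called 1.

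Complement, MHC class I and uptake genes were called more often than the background of 2.6%. Of 17 complement genes 4 rose. The complement receptor subunit gene Itgam, which encodes the CD11b used for the sort, stood at 1539, 1368 and 1512 CPM in Yy1cKO, against 754, 807 and 888 CPM in Yy1flox (log2 difference 0.85 ± 0.12, edgeR adjusted p = 0.000494). Itgam held throughout, while C1qb and C1qc, with log2 differences of 0.54 and 0.50, were lost without Yy1flox replicate 1 (adjusted p = 0.117 and 0.192). Of 16 MHC class I genes 3 rose, B2m and the chaperones Calr and Pdia3, and these were lost as well (adjusted p = 0.104 to 0.164). Of 15 genes of apoptotic cell uptake the integrin gene Itgb5 rose, with a log2 difference of 0.68 ± 0.12, and Cd300lf, Stab1 and Havcr2 fell. Itgb5 held throughout, and the 3 lower calls were lost without Yy1flox replicate 1 (adjusted p = 0.108 to 0.305). Of 46 lysosomal genes 4 rose and 1 fell, and without Yy1flox replicate 1 the 4 higher calls (adjusted p = 0.0980 to 0.200) and the lower call (adjusted p = 0.175) were lost.

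Lists of metabolism and growth differed in their share of calls, set against 2.6% of all tested genes. It was 17.9% for glycolysis and hypoxia, 14.3% for TGF-beta signaling, 5.88% for growth and trophic factors and 2.56% for cell cycle. Of 28 genes of glycolysis and hypoxia 4 rose and 1, Ddit4, fell. The collagen prolyl hydroxylase gene P4ha1 stood at 342, 234 and 297 CPM in Yy1cKO, against 111, 139 and 112 CPM in Yy1flox (log2 difference 1.27 ± 0.18), and the hexokinase gene Hk2 had a log2 difference of 0.88 ± 0.15. Both held throughout, while the other 2 higher calls, Hk3 and Ldha (adjusted p = 0.104 to 0.208), and Ddit4 were lost without Yy1flox replicate 1. Pdgfb, a platelet-derived growth factor gene, was the 1 call among 17 growth and trophic factor genes, with 294, 312 and 319 CPM in Yy1cKO against 169, 163 and 201 CPM in Yy1flox, and was lost without that library (adjusted p = 0.0866). Among 21 genes of TGF-beta signaling, the feedback inhibitor genes Smad7 (log2 difference 0.95 ± 0.17) and Skil (0.48 ± 0.12) rose while Tgfbi fell, and the rises were lost without Yy1flox replicate 1 (edgeR adjusted p = 0.0527 and 0.164). Of 39 cell cycle genes only Pcna was called, lower by a log2 difference of -0.67 ± 0.15, and it was lost without Yy1flox replicate 1 (adjusted p = 0.200). The proliferation gene Mki67 had overlapping groups, with 233, 165 and 253 CPM in Yy1cKO against 152, 212 and 221 CPM in Yy1flox. Igf1, the growth factor gene, stood at 112, 52.3 and 92.2 CPM in Yy1cKO, against 123, 167 and 168 CPM in Yy1flox, groups that did not overlap but did not pass (edgeR adjusted p = 0.0923). It was called lower in 4 of the 18 alternatives, with no filter on low counts, DESeq2, limma-voom and the replicate block (adjusted p = 0.0026 to 0.0407).

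A few genes that rise when brain tissue is dissociated were called. Of 29 such genes, which include immediate early and heat shock genes, 4 rose (against 1.55% of all tested genes) and 2 fell, Klf4 and Klf6, while 23 did not pass. Summed levels of the list overlapped, at 17899.5 to 19756 CPM in Yy1cKO and 14517 to 18600.2 CPM in Yy1flox. Hspa1b, which encodes an inducible heat shock protein, stood at 523, 274 and 596 CPM in Yy1cKO, against 77.6, 86.8 and 159 CPM in Yy1flox (log2 difference 2.10 ± 0.28, edgeR adjusted p = 0.000494), and held throughout. The nuclear receptor gene Nr4a1 stood at 159, 61.8 and 166 CPM in Yy1cKO, against 27.0, 15.1 and 45.7 CPM in Yy1flox (log2 difference 2.14 ± 0.39). Hspa1a had a log2 difference of 1.08 ± 0.23 and Fos of 0.55 ± 0.11. Without Yy1flox replicate 1 these 3 calls were lost (adjusted p = 0.0936 to 0.193). Replicate 2 was the lowest Yy1cKO library for each of these genes. The part of tissue handling in the other results was not tested.

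Markers of other cells differed between the groups. Summed over 18 monocyte markers, levels ran from 761 to 880 CPM in Yy1cKO and from 1081 to 1527 CPM in Yy1flox, and 9 of the 16 tested were lower in every Yy1cKO library (11.5% of all tested genes were), with a median log2 difference of -0.84. Of these F13a1, a coagulation factor gene of monocytes and border-associated macrophages, stood at 8.47, 17.1 and 11.5 CPM in Yy1cKO, against 43.6, 56.9 and 65.5 CPM in Yy1flox, and Chil3 fell by 1.29 ± 0.32 on the log2 scale. They were the 2 calls among the 16 tested monocyte markers, 12.5% against 1.05% of all tested genes called lower. F13a1 held throughout, and Chil3 was lost without Yy1flox replicate 1 (edgeR adjusted p = 0.200). Border-associated macrophage markers summed to 1097 to 1329 CPM in Yy1cKO and 1580 to 1909 CPM in Yy1flox. Of 12 tested, Stab1 and F13a1 were called lower (16.7%). Stab1 was lost without Yy1cKO replicate 1 and without Yy1flox replicate 1 (edgeR adjusted p = 0.192 for the latter). Without Stab1 these macrophage markers summed to 558 to 590.0 CPM in Yy1cKO and 593 to 676 CPM in Yy1flox. Endothelial and mural markers summed to 558 to 717 CPM in Yy1cKO and 813 to 1151 CPM in Yy1flox. Of 17 tested, 7 were lower in every Yy1cKO library and 1, Myh11, was called lower (5.88%). In bulk libraries, fewer cells of a type and less RNA per cell cannot be told apart, and the part of these cells in the lower levels of Spp1, Cd36, Msr1, Myh11 and Mylk was not tested.

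Sums over markers of other blood and brain cells moved in either direction or overlapped. Neutrophil markers summed to 1244 to 1549 CPM in Yy1cKO and 830.3 to 912 CPM in Yy1flox, and without Csf3r, the receptor gene for granulocyte colony-stimulating factor, to 273 to 410 CPM in Yy1cKO and 334 to 363 CPM in Yy1flox, which overlap. Dendritic cell markers summed to 1067 to 1301 CPM in Yy1cKO and 574 to 632 CPM in Yy1flox, led by Siglech, which is also on the resting microglia list, and Fscn1. These were the 2 calls among 9 tested genes, 22.2% against 2.6% of all tested genes in either direction. Of the 9 genes 4 had positive and 5 negative log2 differences, with a median of -0.004. Without Siglech the sums were 206 to 254 CPM in Yy1cKO and 97.4 to 121 CPM in Yy1flox. T and NK cell markers summed to 0 to 2.07 CPM in Yy1cKO and 4.05 to 7.12 CPM in Yy1flox, with 12 of 18, Cd3e and Cd8a among them, at 0 in every library. B cell markers summed to 5.41 to 8.68 CPM in Yy1cKO and 9.71 to 18.3 CPM in Yy1flox, with Ms4a1 and Pax5 at 0 in every library. Sums of astrocyte, oligodendrocyte, neuron and erythrocyte markers overlapped between the groups.

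A minority of the genes called in Yy1cKO also differed by at least 4-fold after stroke in wild-type microglia: 19.8% of the higher calls were at least 4-fold below sham on day 1, and 26.2% of the lower calls at least 4-fold above. This was read from the separately scaled table with 1 library each of sham-operated mice and of days 1, 6, 14 and 28, so these ratios have no replicates, and all days share the sham library. Ratios were taken after adding 1 CPM. Of 7203 genes at 20 CPM or more on day 1 or after sham surgery, 5.59% were at least 4-fold above sham on day 1 and 2.00% at least 4-fold below, and on day 6 6.25% of 7092 were above and 0.0846% below. On day 14 12.9% of 7833 were above and 6.82% below, and on day 28 11.1% of 7616 were above and 15.2% below. Of 144 genes at least 4-fold below sham on day 1 38 were called higher in Yy1cKO (26.4%) and 1 lower (0.694%), against 1.55% and 1.05% of all tested genes. Of 344 tested genes at least 4-fold above sham on day 1 34 were called lower (9.88%) and 2 higher (0.581%). Of 411 tested genes at least 4-fold above sham on day 6 31 were called lower (7.54%) and 1 higher (0.243%), and only 6 genes were as far below sham. The shares were smaller on days 14 and 28, for which the lists were longer. Of the genes above sham, 3.63% of 855 were called lower for day 14 and 3.56% of 758 for day 28. Of the genes below sham, 4.31% of 534 were called higher and 1.69% lower for day 14, while for day 28 1.56% of 1157 were called higher and 0.778% lower. The shares of 1.55% and 1.05% cover all tested genes, while these lists leave out genes under 20 CPM in both libraries. Among tested genes at 20 CPM or more in either library, 191 of 7142 were called higher and 108 lower for day 1. For day 28, 192 of 7527 were called higher and 100 lower.

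Single genes from the lists are given here with both sets of values. P2ry12 had a log2 ratio to sham of -3.91 on day 1 and -1.71 on day 6, and Slc2a5 of -4.10 and -1.97, while both rose in Yy1cKO. Spp1 had log2 ratios to sham of 9.51 on day 1 and 6.52 on day 6, Msr1 of 7.90 and 4.12 and Cd36 of 5.52 and 2.80, while these fell in Yy1cKO. Clec7a went the other way, with log2 ratios to sham of 2.36 and 3.35 and a rise in Yy1cKO. Read from the Yy1 calls, 162 of 191 higher genes with a ratio lay below sham on day 1 (84.8%) and 77 of 108 lower genes lay above it (71.3%), against 50.6% below and 49.4% above over all 7142 genes. Of the higher genes 84.3% lay below sham on day 6, 84.8% on day 14 and 80.7% on day 28. Over all genes with a ratio these shares were 58.5%, 51.9% and 46.3%. Of the lower genes 75%, 59.8% and 63% lay above sham on these days, against 41.5%, 48.1% and 53.7% of all genes. Between EGFP-positive and EGFP-negative microglia of Igf1-Egfp mice on day 6, with 1 library each, 7.53% of 7252 genes were at least 2-fold higher in EGFP-positive cells, and 14 of the 539 of these that were tested were called higher in Yy1cKO (2.6%) and 22 lower (4.08%). A further 11.9% were at least 2-fold lower in EGFP-positive cells, and of the 802 of these that were tested 37 were called higher (4.61%) and 21 lower (2.62%). On day 14, where 11.2% of 7085 genes were at least 2-fold higher and 10.9% lower in EGFP-positive cells, 1.14% of 792 tested genes of the first list were called higher and 2.40% lower, and of 768 tested genes of the other list 1.43% were called higher and 1.30% lower.

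The wild-type table also held glucocorticoid-responsive genes, a few of which are given here. After sham surgery and on days 1, 6, 14 and 28, Fkbp5 stood at 58.6, 87.3, 120.1, 99.0 and 25.7 CPM, Zbtb16 at 0.9, 4.56, 13.6, 18.8 and 0 CPM, and Klf9 at 4.91, 33.4, 53.7, 78.8 and 47.3 CPM. All of these genes were higher on days 1, 6 and 14 than after sham surgery, in 1 library each. These tables were scaled apart, so the levels are given beside those of Yy1cKO and Yy1flox without a test.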

How the data were processed

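The deposited values are expected counts per gene in the Yy1 table, with a decimal part in 3.55% to 4.75% of values, and whole-number counts in the authors' tables of the other libraries. STAR, featureCounts and edgeR are named in the submitters' processing notes with the builds mm10 and GRCm38, and how the decimals arose is not given in the sources used here. Counts were rounded to whole numbers, filtered with filterByExpr, scaled by TMM and tested with edgeR 4.0.16 (R 4.3.3), using its quasi-likelihood test with Benjamini-Hochberg adjustment over 12387 genes and a threshold of 0.05. CPM was computed here. Levels of genes are compared within a gene, since CPM is not corrected for length. Errors are SE for log2 differences and SD for means. A floor of 3 counts over the group was used for genes at 0, and floors and the counting interval cover counting error only. Alternatives were DESeq2 1.42.0, limma 3.58.1 (voom), other scalings and filters, a replicate block and leaving out each library. Removing Rn45s and keeping only genes counted in all 6 libraries were chosen after seeing the data.

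Named genes were 12 fixed genes, the called genes with the largest folds or smallest p-values at 10 CPM or more, and for each list up to 8 called members by p, or the 3 most abundant where fewer than 2 were called. The members and lists were chosen with earlier results of these data known. Promoters came from RefSeq (GRCm38.p6). The fit was also run on simulated counts with less spread between libraries than these data, whose common dispersion was 0.332. That run therefore does not show the error rates of the test here. The labels number the libraries as biological replicates, 3 a group, but do not say that each is 1 animal. Results for a few genes are not reported here.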

Additional observations from a re-analysis of the deposited data

How the results depend on the processing

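The counts of 192 higher and 130 lower genes became 309 and 266 with no filter on low counts, 380 and 327 with DESeq2 (53 genes without an adjusted p), 289 and 192 with limma-voom, and 127 and 193 with total-count scaling. Leaving out 1 library at a time gave 58 to 166 higher and 39 to 151 lower genes, lowest without Yy1flox replicate 1. The cause was not tested. Same-numbered libraries did not deviate together (r = -0.0058, -0.038 and -0.028 over genes), so the numbers were not taken to pair them, and with the replicate block 219 genes were higher and 194 lower. The log2 difference of Yy1 ran from -1.01 to -0.70 over the alternatives (edgeR adjusted p or that of the other tools 0.0715 to 0.569), past the threshold in none of the 18. Of 120 called genes followed one by one, 53 were called in every alternative that tested them, 67 were lost in at least 1 and 0 changed direction. Precision is limited by 3 libraries a group and, for genes near 0, by the floor of 3 counts.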
